A study of Mus musculus with 12 samples.

Results

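Untreated cells of mice that lacked Stat5a and Stat5b in blood cells were compared with untreated cells of control mice, on 3 expression arrays of either genotype. These 6 arrays are all the untreated ones among the 12 of the series, and each knockout array was set against the control array of the same date. The labels name the groups control and Stat5 KO, mark these 6 as given no "GMP", and write the same letters into titles of some untreated arrays, so their meaning, an agent or a cell type, was unclear and only the word untreated is used. The other 6 arrays hold the same genotypes after treatment, and all 12 carry biotin-labelled total RNA of Mus musculus. The Cre or other driver of the deletion, the deleted part of either gene, the age and number of mice and the culture before labelling are not given in the sources used here. Whether the arrays of a group stem from different animals is not stated, and the p-values here therefore speak for the spread of these samples only, some of it perhaps technical.

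STAT5A and STAT5B are a closely related pair of transcription factors that wait in the cytoplasm. When a cytokine such as GM-CSF, IL-3 or erythropoietin binds its receptor, the receptor-bound kinase JAK2 phosphorylates them, and they pair, enter the nucleus and bind DNA at the palindrome TTCNNNGAA. Their classical targets include genes that shut the signal off again, such as Cish and the SOCS family, and genes for survival and division, such as Pim1, Bcl2l1 and the D cyclins. The comparison here addresses what the absence of the pair means for cells labelled untreated. Whether a cytokine had acted on these cells before labelling is not given.

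Without treatment the knockout arrays differed from the control arrays past the test in Stat5a and Stat5b alone. Both genes fell, and of 11815 genes tested in limma these 2 passed a Benjamini-Hochberg adjusted p of 0.05, which is 0.0169% of them, with 0 higher in knockout. The third smallest adjusted p was 1.0. At an unadjusted p under 0.05 there were 262 genes (2.22%), with 74 higher (0.626%) and 188 lower (1.59%). Granule enzymes, progenitor surface proteins, cytokine receptors, survival genes and division genes were expressed in both genotypes, and no gene of these lists passed.

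The arrays of date 2 stood apart. The ratio of 3' to 5' signal, which is higher where labelled RNA is short, was 59.5 for Actb on the control array and 28.7 on the knockout array of that date, against 1.14 to 1.51 on the other 4, and for Gapdh it was 59.9 and 42.9 against 1.56 to 1.89. The median rank correlation of an array with the other untreated arrays was 0.867 and 0.875 on date 2 and 0.943 to 0.944 elsewhere. Xist, the RNA of the inactive X chromosome, gave 86.7 and 64.3 on the control and knockout arrays of date 1, 34538 and 17860 on date 2 and 9188 and 7088 on date 3. The Y-linked Eif2s3y gave 2169 and 2182, 2.98 and 763, and 777 and 1833 in the same order, so the Y-linked signal was nearly equal between the genotypes on date 1 and lower in control on dates 2 and 3, where sex and genotype cannot be told apart. On these 6 arrays 49.9% to 59.0% of the probe sets with 1 gene symbol lay above a signal of 70.5. That signal, the median of all values in the series, is the threshold for a detected level below and not a test of presence. Of the 11815 genes tested 9005 (76.2%) lay above it on all 6 arrays. A list near that share was detected no more than genes at large. The count of genes past the test was also 2 with the 4 arrays of date 2 left out, but other measures moved. In that fit 568 genes had an unadjusted p under 0.05 in limma, beside 262 with all 12 arrays. Of the 190 genes named by the rules given below, 43 changed sign.

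The deletion was read on 4 probe sets. For Stat5a the control arrays of dates 1, 2 and 3 gave signals of 1147, 905 and 833, and the knockout arrays 33.0, 101 and 48.1. For Stat5b they gave 1531, 515 and 1313 against 24.0, 48.7 and 51.2. On these sets every control array lay far above every knockout array. On the scale of log2(signal + 13), Stat5a fell by 3.82 ± 0.39 (SE, 3 pairs, adjusted p = 0.0208 in limma) and Stat5b fell by 4.28 ± 0.47 (adjusted p = 0.0208). The smallest of the 3 differences was that of date 2 for both genes, at -3.01 for Stat5a and -3.10 for Stat5b, beside -4.66 and -5.38 on date 1. A dimmer set of Stat5b differed by -1.55 ± 0.28, with 128, 164 and 98.5 in control and 47.3, 31.6 and 28.2 in knockout. A dimmer set of Stat5a overlapped between the genotypes, since the control array of date 2 lay at 7.55, and it differed by -0.80 ± 0.55. A probe set outside the deleted part would check nothing, and no source used here says which part that is.

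**Figure D1:**
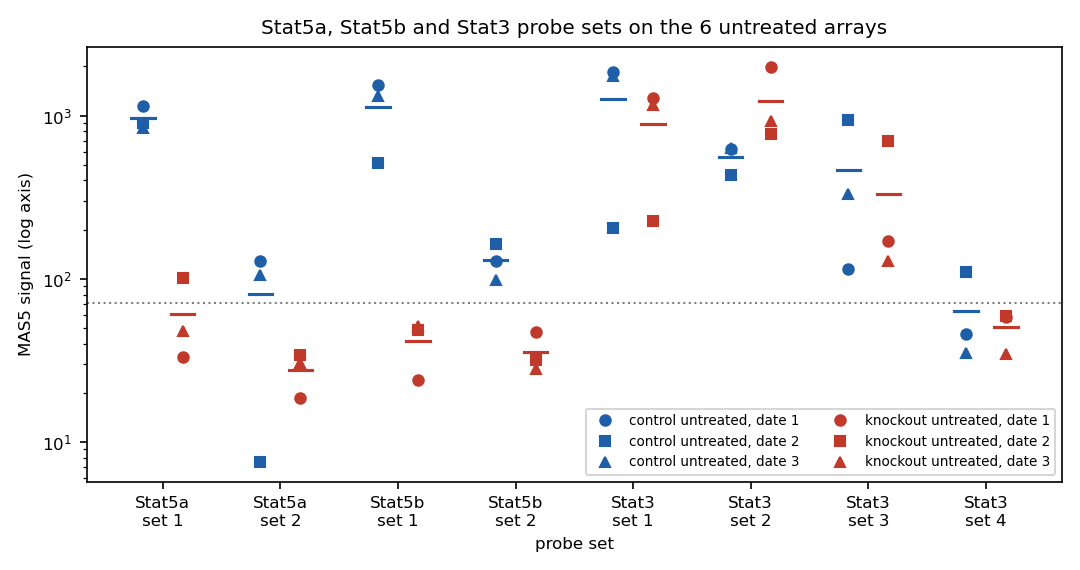
Signal (log axis) of each Stat5a, Stat5b and Stat3 probe set on the 6 untreated arrays, with 1 point per array, colour for genotype and a dotted line at the median of all values. The brighter Stat5a and Stat5b sets separate the genotypes on every date, at 833 or more against 101 or less for Stat5a, and the 4 Stat3 sets do not move together.

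The call of the pair needed most of the arrays, although its size did not. With only the 6 untreated arrays in the fit no gene passed, and Stat5a and Stat5b had adjusted p of 0.669 and 0.707. Without the date block 1 gene passed, since Stat5b then had 0.238. A constant of 1 in place of 13 ended both calls (0.0812 for Stat5a and 0.752 for Stat5b), and the mean over the probe sets of a gene ended that of Stat5a, at -2.31 with an adjusted p of 0.895. Leaving out control untreated replicate 1, 2 or 3, knockout untreated replicate 1 or 3, or knockout treated replicate 1 ended both calls (adjusted p of 0.0853 to 0.234), and leaving out control treated replicate 3 ended that of Stat5b (0.0575). The log2 difference in the fits without 1 array stayed between -4.31 and -3.37 for Stat5a and between -4.98 and -3.77 for Stat5b.

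For the other genes the data bound the difference more than they show its absence. The 95% interval extended by a median of 0.644 log2 units above and below the estimate, with 0.601 for the 9005 genes above the threshold on all 6 arrays and 0.868 for the other 2810. It lay within 1 log2 unit of 0 for 7729 genes (65.4%) and within 2 units for 11504 (97.4%). The estimate was 1 or more in size for 124 genes, 52 higher and 72 lower, of which 15 were above the threshold on all 6 arrays. The largest rise, at 2.28, was that of a sex-linked gene. The 4 sex-linked genes tested had a median of 1.29 (3.66 on date 2), and the part of sex in the other differences was not tested. The difference had the same sign on all 3 dates for 3173 genes (26.9%), 1576 higher and 1597 lower. Across genes the differences of dates 1 and 2 had a Pearson correlation of 0.058, those of dates 1 and 3 0.15 and those of dates 2 and 3 -0.066, a description over 11815 genes that share each array's scaling and RNA quality. Genes that were not above the threshold on all 6 arrays held 151 of the 262 at an unadjusted p under 0.05 (5.37% of them), with 21 higher, while the brighter genes held 111 (1.23%), with 53 higher. MAS5 subtracts mismatch signal, and the part of that step in these counts was not tested.

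**Figure D2:**
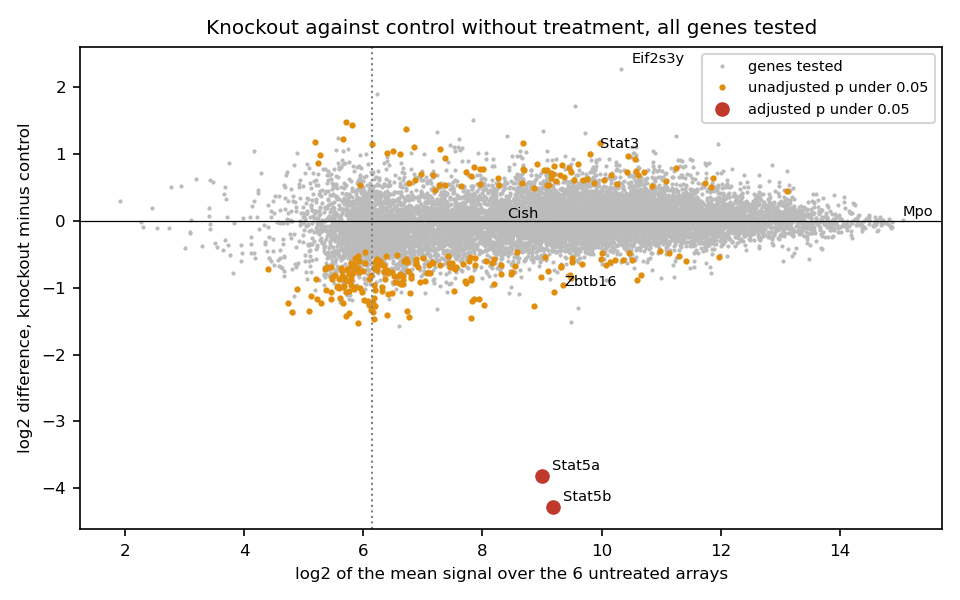
Knockout minus control difference on the scale of log2(signal + 13) against the log2 of the mean signal over the 6 untreated arrays, with 1 point per gene for the 11815 genes tested. Stat5a and Stat5b, at -3.82 and -4.28, stand far below the cloud, and a dotted line marks the threshold signal of 70.5.

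STAT and JAK genes other than the deleted pair were detected in both genotypes. All 10 with a probe set of 1 symbol were tested. Above the threshold on all 6 arrays were 7 of them (70.0%), without Stat5a and Stat5b, against 76.2% of all genes tested. The list holds 1 gene higher and 2 lower at an unadjusted p under 0.05, which are Stat3, Stat5a and Stat5b. Jak2, the kinase bound to the GM-CSF receptor, gave 1055, 2394 and 1426 in control and 1055, 1199 and 1191 in knockout cells. Its groups overlapped, and the difference was -0.42 ± 0.28. Jak1 differed by -0.33 ± 0.23, Jak3, the partner of the common gamma chain, by 0.38 ± 0.31 and Tyk2 by -0.13 ± 0.28. Stat6, the mediator of IL-4 signals, differed by -0.00 ± 0.27, with 1529, 577 and 1101 in control and 1490, 637 and 1026 in knockout. Stat4, which acts after IL-12, differed by 0.02 ± 0.20 and Stat2, of the interferon pathway, by 0.40 ± 0.35.

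Stat3 lies next to the Stat5 locus on chromosome 11 and encodes the STAT of the IL-6 and G-CSF receptors. The probe set that stood for it gave 623, 430 and 630 in control and 1989, 767 and 920 in knockout cells. Each knockout array was above every control array, and the difference was 1.0 ± 0.28 (95% interval 0.37 to 1.63, unadjusted p = 0.00539 in limma, adjusted p = 1.0), so it did not pass. The other 3 Stat3 probe sets gave -0.17 ± 0.36, -0.31 ± 0.43 and -0.40 ± 0.40, so the sets of this gene disagreed. With the mean of the gene's probe sets in place of the brightest the difference was 0.03. Of the 20 tested genes nearest the locus, 10 on either side in the order of the RefSeq gene table, Stat3 was the 1 with an unadjusted p under 0.05. The next smallest were those of Tubg1, a microtubule-nucleating tubulin, at 0.44 ± 0.20, and Nkiras2, an inhibitor of NF-kB signalling, at 0.45 ± 0.22.

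**Figure D3:**
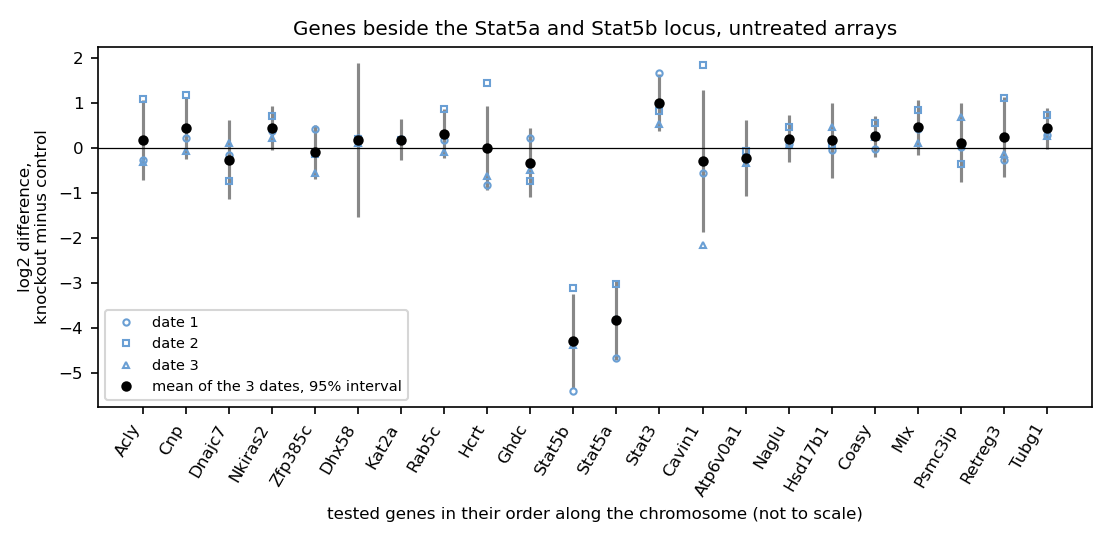
Knockout minus control difference on the log2 scale for the 10 tested genes before and the 10 after the Stat5 locus in chromosome order (not to scale), with Stat5b and Stat5a between them. Black points are means of the 3 dates with 95% intervals and small symbols are single dates. Only the deleted pair lies far from 0, and Stat3 stands at 1.0.

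STAT5 and cytokine feedback targets were expressed without treatment at levels that did not pass the test between genotypes. Of 31 targets with a probe set of 1 symbol 30 were tested, 25 above the threshold on all 6 arrays, and the remaining 1, the feedback inhibitor gene Socs1, gave at most 24.4. Among the 30, 0 passed, 0 were higher and 1 lower at an unadjusted p under 0.05, 18 differences lay below 0, and the median difference was -0.04 against -0.01 over all genes tested. The interval lay within 1 log2 unit of 0 for 14 of the 30. A promoter window was searched for 21 of the 30 targets, and for 3 of these it held the STAT palindrome. The windows of these 3 are shown with it, to show the letters searched for in their context, and binding there was not measured. They run from 250 bases before to 50 after the annotated start, from RefSeq on GRCm38.p6, 5′ to 3′ on the strand of the gene, with each TTCNNNGAA in capitals.
Cish, chr9:107296409-107296708, plus strand: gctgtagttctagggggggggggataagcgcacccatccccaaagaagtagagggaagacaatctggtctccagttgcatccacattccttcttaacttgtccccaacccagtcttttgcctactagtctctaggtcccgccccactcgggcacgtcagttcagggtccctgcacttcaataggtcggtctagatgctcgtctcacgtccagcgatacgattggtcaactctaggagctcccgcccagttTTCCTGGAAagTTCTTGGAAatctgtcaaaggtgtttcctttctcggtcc
Socs3, chr11:117969317-117969616, minus strand: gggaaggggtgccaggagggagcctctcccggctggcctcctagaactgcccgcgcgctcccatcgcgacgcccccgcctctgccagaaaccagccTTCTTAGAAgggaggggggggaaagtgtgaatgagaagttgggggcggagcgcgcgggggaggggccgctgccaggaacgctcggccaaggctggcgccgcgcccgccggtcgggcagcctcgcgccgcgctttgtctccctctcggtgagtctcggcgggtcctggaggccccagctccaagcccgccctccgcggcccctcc
Bcl6, chr16:23981234-23981533, minus strand: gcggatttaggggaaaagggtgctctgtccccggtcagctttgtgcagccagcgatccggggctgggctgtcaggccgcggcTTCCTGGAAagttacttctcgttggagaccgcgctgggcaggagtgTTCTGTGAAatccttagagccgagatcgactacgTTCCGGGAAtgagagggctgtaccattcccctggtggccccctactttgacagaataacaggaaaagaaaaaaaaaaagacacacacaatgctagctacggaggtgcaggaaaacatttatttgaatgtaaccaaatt
The motif TTCNNNGAA is its own reverse complement, so a search of 1 strand covers both. It was found in 4 of the 29 windows of the 21 targets searched (13.8%), against 8.30% of all 32851 windows searched and 6.92% of the 12312 windows of tested genes. The Bcl6 window shown holds 3 matches, another Bcl6 window holds 1, and the Cish window holds 2, with TTCCTGGAA and TTCTTGGAA. The windows of Stat5a, Stat5b and Stat3 held none, which says only that these letters are not in these stretches. Among genes at an unadjusted p under 0.05 it was in 10.9% of the 192 windows of those lower and 6.10% of the 82 of those higher in knockout.

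Cish, which encodes an SH2 protein that damps STAT5 signalling, gave 188, 512 and 252 in control and 243, 372 and 245 in knockout cells. The groups overlapped, with date 2 high in both genotypes, and the difference was -0.05 ± 0.26 (95% interval -0.62 to 0.53). Socs3, an inhibitor of JAK kinases, was near the threshold, at 59.8, 92.5 and 64.9 against 66.7, 299.7 and 12.7, and its 0.03 ± 1.04 has an interval from -2.29 to 2.35 that bounds little. The 2 other Socs3 sets, both marked as able to cross-hybridize, gave -1.13 ± 0.79 and -0.72 ± 0.64. Bcl6, a transcriptional repressor, differed by -0.11 ± 0.32, from 172, 378 and 119 to 144, 309 and 136. Socs2 gave -0.20 ± 0.36 on the set that stood for it and 0.37 ± 0.36 and -0.09 ± 0.33 on its other sets, all dim. Pim1, a serine kinase that favours survival, was the target with an unadjusted p under 0.05. It gave 4023, 3925 and 6040 in control and 2827, 2185 and 5031 in knockout cells, lower on each date but with overlapping groups, a difference of -0.54 ± 0.24 (95% interval -1.07 to -0.01, unadjusted p = 0.0473 in limma, adjusted p = 1.0). Its relatives Pim2 and Pim3 differed by -0.17 ± 0.75 and 0.68 ± 0.34, the latter from 316, 33.0 and 217 to 372, 159 and 205. Among the D cyclins, which carry cells into division, Ccnd2 differed by 0.02 ± 0.27 (3946, 4724 and 3181 against 3660, 5503 and 3052), Ccnd3 by 0.46 ± 0.41 and Ccnd1 by 0.59 ± 0.45. Myc, the growth regulator, differed by 0.20 ± 0.32 and the cell cycle inhibitor Cdkn1a by 0.16 ± 0.32. The largest difference in the list was that of the early response factor Egr1, at -0.86 ± 0.53, and it came mostly from date 3, where control gave 3767 and knockout 807.

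**Figure D4:**
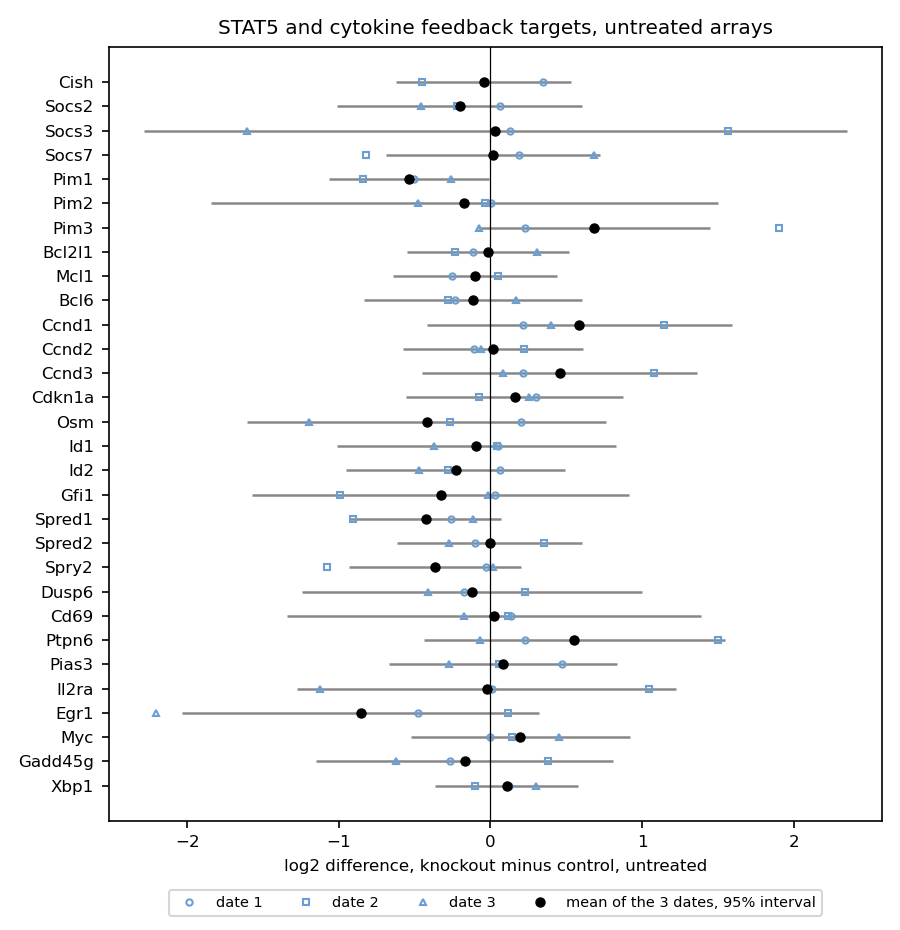
Knockout minus control difference on the log2 scale for the 30 STAT5 and cytokine feedback targets tested. Open symbols are the 3 dates, black points their mean with its 95% interval, and the largest mean differences are those of Egr1 (-0.86) and Pim3 (0.68).

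Receptors for GM-CSF and other myeloid cytokines were present in both genotypes, and 0 of 23 tested receptor genes passed or had an unadjusted p under 0.05. Of 25 on the array 21 were above the threshold on all 6 arrays, and all 23 differences were smaller than 0.5, with a median of 0.02. Csf2ra, the ligand-binding chain of the GM-CSF receptor, gave 1139, 712 and 1070 in control and 1340, 881 and 1099 in knockout cells, a difference of 0.19 ± 0.22. Csf2rb, the signalling chain shared with IL-3 and IL-5, gave 4106, 2658 and 2607 against 4482, 2117 and 1946, and differed by -0.21 ± 0.28. The levels overlapped for both chains. Csf2rb2, the second mouse beta chain, differed by -0.49 ± 0.40 and has a sequence so close to Csf2rb that probe sets may share signal. Csf3r, the G-CSF receptor, differed by 0.02 ± 0.21, and Csf1r, the M-CSF receptor, by 0.06 ± 0.22, from 6440, 26351 and 8695 to 7017, 22285 and 10700.

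Survival genes of the BCL2 family were likewise detected in both. Of 20 on the array 19 were tested. Above the threshold on all 6 arrays were 14 of the 19 (73.7%), against 76.2% of all genes tested. Among the 19, 0 passed or had an unadjusted p under 0.05 (median -0.01). Bcl2l1, which encodes BCL-XL and is a known STAT5 target, gave 633, 801 and 455 in control and 584, 680 and 565 in knockout, a difference of -0.01 ± 0.24 (95% interval -0.55 to 0.52). Mcl1, a short-lived guardian of myeloid cells, differed by -0.10 ± 0.24, Bcl2 by 0.08 ± 0.20 and Bcl2l2 by 0.22 ± 0.36. A p that misses the threshold does not show that these levels were equal, and the interval of Mcl1 runs from -0.64 to 0.44.

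Surface markers of early granulocyte and monocyte precursors were detected in both genotypes. The 5 surface markers of granulocyte-monocyte progenitors that could be read, the stem cell factor receptor Kit, the adhesion protein Cd34, the Fc receptors Fcgr3 and Fcgr2b and Cd93, were above the threshold on all 6 arrays, and 0 had an unadjusted p under 0.05. Kit gave 3789, 917 and 3353 in control and 3066, 1365 and 2613 in knockout. Cd34 gave 8303, 1524 and 6225 against 8313, 3213 and 5515, low on date 2 in both. Their differences were -0.03 ± 0.35 and 0.30 ± 0.45. Which cells were put on the arrays is not stated clearly in the labels, and in bulk RNA fewer cells of a type and less RNA per cell cannot be told apart.

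Primary granule genes, which neutrophil precursors switch on early, were detected in both genotypes. Of 17 tested 16 were above the threshold on all 6 arrays, 0 passed or had an unadjusted p under 0.05, all 17 differences were smaller than 0.5, and the median was -0.00. The 95% interval lay within 1 log2 unit of 0 for 11 of the 17. Mpo, the myeloperoxidase gene, gave 16942, 55927 and 17378 in control and 15309, 57457 and 18012 in knockout cells. The high date 2 values occurred in both genotypes, and the difference was -0.02 ± 0.25. The serine proteases of the same granules gave 0.30 ± 0.32 for Elane, 0.09 ± 0.20 for Prtn3 and -0.00 ± 0.27 for Ctsg, so that for Prtn3 a difference beyond -0.37 or 0.54 is outside the 95% interval.

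Secondary and tertiary granule genes, which come on later in neutrophil maturation, varied between dates. Of 28 on the array 24 were tested and 19 were above the threshold on all 6 arrays. None passed, 1 was higher and 2 were lower at an unadjusted p under 0.05, and the median difference was -0.28, made up of 0.17 on date 1, -0.61 on date 2 and -0.09 on date 3. S100a8, which encodes a calcium-binding protein of neutrophils, shows the pattern, with 1547, 28215 and 6166 in control and 1878, 5078 and 8026 in knockout, so the control array of date 2 was the highest and the other dates went the opposite way. The antimicrobial genes Camp (293, 5909 and 1665 against 373, 1950 and 2285), Ngp (3391, 17499.9 and 10641 against 3673, 5497 and 13226) and Lcn2 (859, 2825 and 1775 against 916, 738 and 2092) had their highest value on the same control array. That array also had the largest Actb and Gapdh ratios, and the part of either in these values was not tested. The member higher at an unadjusted p under 0.05 was Cxcr2, a chemokine receptor of mature neutrophils, at 1.0 ± 0.45 (2.34 on date 2 and -0.15 on date 1). The 2 lower, named after their values were seen, were Mmp9, the gelatinase gene, at -0.72 ± 0.29 and Olfm4, a granule glycoprotein, at -0.70 ± 0.22.

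Transcription factors of the myeloid lineage were read for 39 genes, 32 above the threshold on all 6 arrays, with 0 past the test, 2 lower at an unadjusted p under 0.05 and a median of -0.00. Spi1, which encodes PU.1, gave 940, 471 and 625.9 in control and 1092, 746 and 525 in knockout and differed by 0.20 ± 0.31. Cebpa, needed to make granulocyte-monocyte progenitors, differed by -0.00 ± 0.38, Cebpb by 0.02 ± 0.29 and Cebpd by 0.27 ± 0.43. Irf8, which favours monocytes, differed by 0.20 ± 0.31 and Gfi1, which favours granulocytes, by -0.33 ± 0.56. The 2 lower were Egr2, an early response factor at 44.9, 62.8 and 155 in control and 24.2, 17.6 and 67.4 in knockout (-1.0 ± 0.33), and Klf6, named after its values were seen (-0.80 ± 0.32, with -1.52 on date 3). Zbtb16, which encodes the repressor PLZF of early progenitors, lies in neither this list nor the next and was named for its small p. The gene gave 1023, 347 and 934 in control and 661, 107 and 463 in knockout cells. It was lower on each date with overlapping groups, and its -1.07 ± 0.29 (unadjusted p = 0.0039 in limma, adjusted p = 1.0) did not pass. Of 32 stem and early progenitor genes tested 25 were above the threshold on all 6 arrays (78.1%, against 76.2% of all genes tested). In this list 23 differences lay below 0 (6030 of all 11815 genes), and the median was -0.22, with -0.29, -0.32 and -0.02 on the 3 dates. In that list the 1 at an unadjusted p under 0.05 was the receptor Tek (-0.76 ± 0.26), whose knockout signals of 30.9, 52.5 and 42.4 lay below the threshold.

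Monocyte and macrophage genes were above the threshold on all 6 arrays for 23 of 34 on the array. The 23 are 76.7% of the 30 tested, near the 76.2% of all genes tested. Of the 30, 0 had an unadjusted p under 0.05, and the median was 0.07. Ly86, a partner of a Toll-like receptor relative, differed by 0.24 ± 0.33, the chemokine receptors Ccr2 and Cx3cr1 by -0.19 ± 0.33 and -0.28 ± 0.33. The 4 macrophage genes on the array that did not pass the filter were the scavenger receptors Marco and Cd36, at no more than 8.46 and 19.3, and Aif1 and Trem2. Aif1 reached 86.5 in control and 92.1 in knockout on date 2, and Trem2 reached 87.6 on the knockout array of that date. Dendritic cell and MHC class II genes were partly detected, 9 of 26 on all 6 arrays, and 0 of 21 tested had an unadjusted p under 0.05 (median 0.04). H2-Ab1, an MHC class II chain, gave 524, 466 and 429 against 529.9, 477 and 454 (0.04 ± 0.25), while Ccr7 of mature dendritic cells reached at most 9.94.

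Markers of other blood lineages were read beside these. For T and NK cells 2 of 15 markers on the array, Cd8a and Nkg7, were above the threshold on all 6 arrays, and Cd3d, Cd3g and Cd4 were at most 14.4, 8.27 and 16.5. Cd3e and Il2rb, of T and NK cells, did not pass the filter either but reached 136 and 121 on the knockout array of date 2, against at most 18.8 and 64.2 on the other 5. For B cells 3 of 15 were, among them Ighm, the mu heavy chain gene, at 3716, 13362 and 5236 in control and 5087, 19266 and 6719 in knockout. It was higher in knockout on each date with overlapping groups, at 0.45 ± 0.19 (unadjusted p = 0.0379 in limma), while Cd79a, Ebf1 and Rag1 reached at most 65.9, 33.1 and 5.82. The summed signal of the 9 B lineage markers tested was 4449.6 to 14684 in control and 6000.5 to 20722 in knockout, most of it from Ighm. The median difference of the 9 was 0.02, with 4 below 0 and 5 above. Mast cell and basophil genes held 6 of 11 above the threshold on all 6 arrays, with Cpa3 at 2546, 3229 and 1359 against 2858, 2028 and 1943 (0.00 ± 0.34) and the late mast cell protease Mcpt4 at no more than 15.2.

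Megakaryocyte, erythroid and stromal markers had medians below 0. Of 16 megakaryocyte and platelet markers tested 5 were above the threshold on all 6 arrays and 11 on some of them. Of the 16, 0 passed and 2 were lower at an unadjusted p under 0.05. The median was -0.36, with -0.20, -0.55 and -0.74 on the 3 dates. Below 0 lay 15 differences (6030 of all 11815 genes), a share not computed for genes as dim as most of these. Among all genes not above the threshold on all 6 arrays, 151 had an unadjusted p under 0.05, with 21 higher. The 2 lower markers were Rab27b, a granule trafficking gene (-0.82 ± 0.32), and Vwf, the von Willebrand factor gene, named after its values were seen (-0.64 ± 0.27). Both had most of their signals under the threshold. The brighter platelet chemokine Pf4 gave 622, 2264 and 943 in control and 520, 1456 and 535 in knockout (-0.56 ± 0.36), and the integrin Itga2b gave 880, 411 and 527 against 562, 212 and 449 (-0.59 ± 0.35). The summed signal of the list was 4257 to 6012 in control and 3476 to 4417 in knockout. Of 15 erythroid markers on the array 11 were tested, 5 above the threshold on all 6 arrays and 6 on some of them. Their median was -0.34 with 0 at an unadjusted p under 0.05, and the sums were 8127 to 9704 in control and 6843 to 8156 in knockout. Alas2 and Hba-a1, which did not pass the filter, were at most 10.6 and 53.1. Of 18 stroma and endothelium markers on the array 10 were tested, 3 above the threshold on all 6 arrays and 7 on some of them. Their median was -0.42, with -0.37, 0.12 and -0.69 on the 3 dates. The 1 lower at an unadjusted p under 0.05 was again Tek. The sums were 2463 to 3574 in control and 1960 to 2335 in knockout. Col1a1, Col3a1 and Cdh5, which did not pass the filter, were at most 81.2, 31.8 and 63.0. The part of such cells in any other difference was not tested.

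Genes of cell division and growth were bright in both genotypes. All 44 DNA replication genes and all 49 mitosis genes were above the threshold on all 6 arrays, and 59 of 60 ribosome biogenesis and MYC-linked growth genes and 47 of 47 oxidative phosphorylation genes were too. Of these 4 lists 0 genes passed, and 0, 1, 2 and 0 were higher and 0 lower at an unadjusted p under 0.05, with medians of 0.15, 0.09, 0.12 and 0.11. Cdk1, the kinase that starts mitosis, gave 4742, 5052 and 4503 in control and 5071, 5596 and 4724 in knockout, a difference of 0.10 ± 0.24. Mcm4, a subunit of the replication helicase, gave 7111, 4762 and 5438 against 7009, 4914 and 5820 (0.04 ± 0.24). Plk1, a mitotic kinase, was the mitosis gene with an unadjusted p under 0.05, at 2982, 217 and 3241 against 3235, 887 and 4037 (0.80 ± 0.35). Its difference was 1.97 on date 2 and 0.12 and 0.32 on the others. Rrp9, a component of ribosomal RNA processing, shows the same shape, with 466, 19.2 and 536 against 651, 254 and 535 (1.17 ± 0.52), and so do Ncl, the nucleolin gene (3.05 for Rrp9 and 2.28 for Ncl on date 2), and the glycolytic Pkm (2.58 on date 2, -0.05 and -0.03 on the others), chosen after its values were seen. In each of these the control array of date 2 was the low one. Of 21 glycolysis genes 0 and of 21 cholesterol synthesis genes 1 had an unadjusted p under 0.05, the latter Mvk, the mevalonate kinase gene (0.95 ± 0.34).

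**Figure D5:**
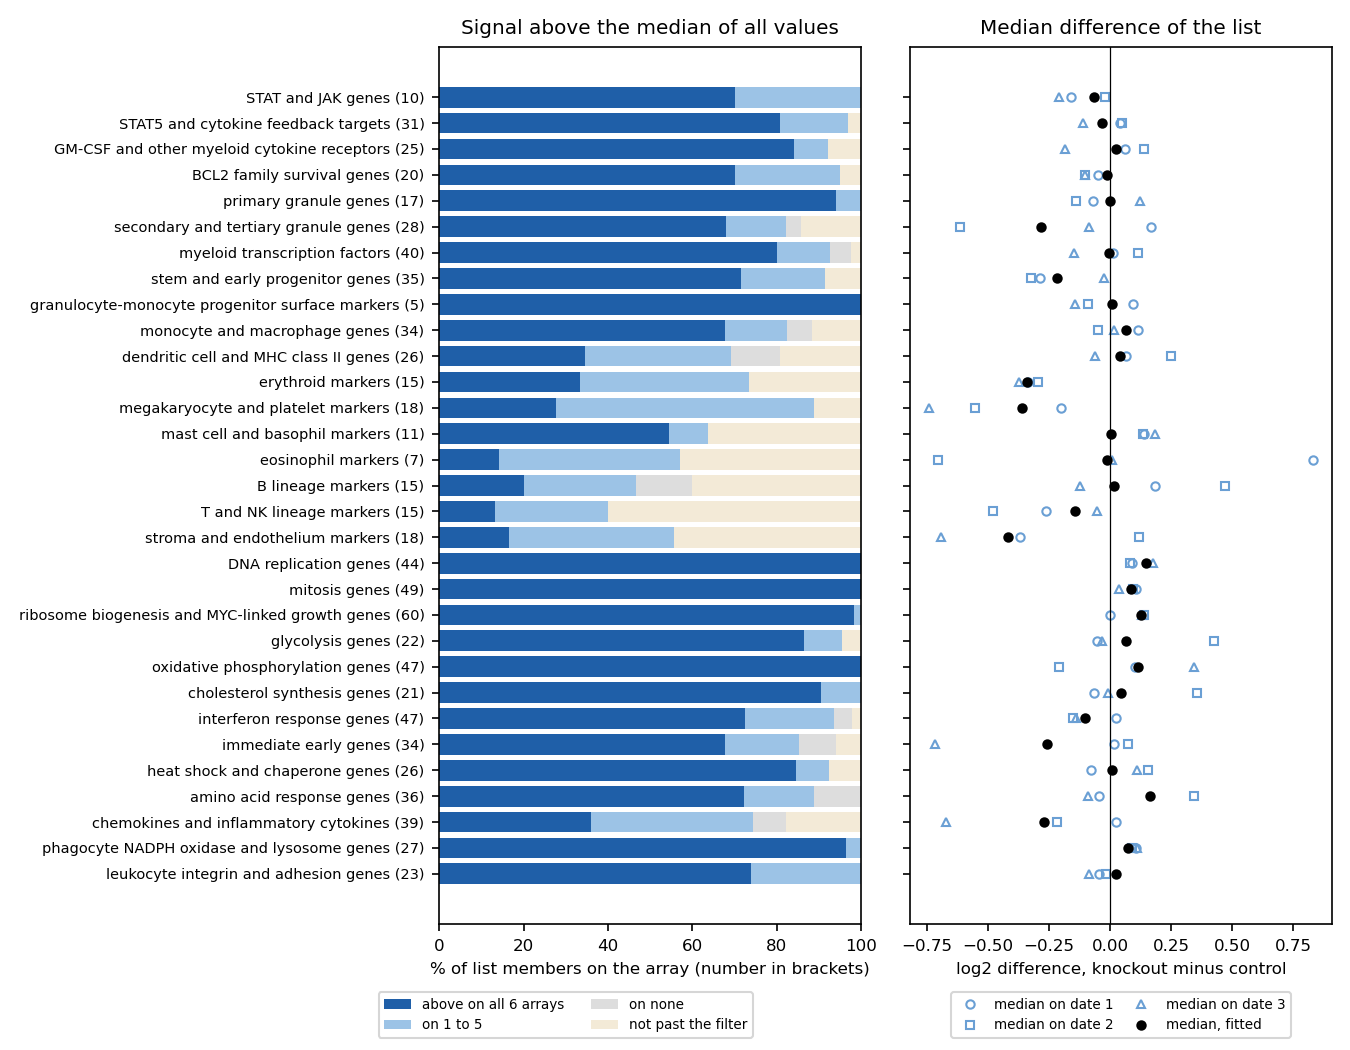
Left, the share of each list's members with a probe set of 1 symbol (number in brackets) that were above the threshold signal on all 6 untreated arrays, on 1 to 5, on none, or did not pass the filter. Right, the median knockout minus control difference of the tested members, by date (open) and fitted (black), with replication and mitosis genes detected on all 6 arrays and lymphoid and stromal markers mostly not.

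Genes of stress and activation were detected without treatment. Immediate early genes, which respond to a stimulus without new protein synthesis, were above the threshold on all 6 arrays for 23 of 34. Of the 32 tested that is 71.9%, against 76.2% of all genes tested. Fos gave 9622, 32299 and 12413 in control and 8845, 30190.0 and 11901 in knockout (-0.09 ± 0.44). The list had 0 genes past the test, 3 of 32 tested lower at an unadjusted p under 0.05 (1.59% of all genes were) and a median of -0.26, made up of 0.01, 0.07 and -0.72 on the 3 dates. The 3 were Egr2, Klf6 and Zfp36l1, an RNA-destabilizing protein gene named after its values were seen, which gave 293, 558 and 315 against 161, 285 and 141 (-0.95 ± 0.32). In this last gene each control array was above every knockout array. Chemokines and inflammatory cytokines had a median of -0.27, with 0.02, -0.22 and -0.67 on the 3 dates and 1 of 32 lower at an unadjusted p under 0.05, the growth factor gene Vegfa (-0.59 ± 0.25). Csf2 and Csf3, the genes of GM-CSF and G-CSF, were at most 10.3 and 8.33 on the 6 arrays. Interferon response genes (46 tested, median -0.10), heat shock and chaperone genes (24, median 0.01), amino acid response genes (36, median 0.16) and phagocyte NADPH oxidase and lysosome genes (27, median 0.07) had 0 at an unadjusted p under 0.05. Among 23 leukocyte integrin and adhesion genes (median 0.02) the 1 was Cxcr2, which lies in this list too.

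The genes with the smallest unadjusted p among those of the same sign on all 3 dates did not pass either, at adjusted p near 1. Of those higher in knockout, Coq6, an enzyme of coenzyme Q synthesis, gave 436, 441 and 312 in control and 698, 867 and 504 in knockout, without overlap, a difference of 0.76 ± 0.21 (unadjusted p = 0.0043 in limma). Such separation of the 2 groups was found for 183 genes with knockout higher (1.55%) and 269 with knockout lower (2.28%). Qtrt1, a tRNA-modifying enzyme, gave 807, 447 and 447 against 1147, 916 and 925 (0.85 ± 0.23), and Cope, a coat protein of transport vesicles, 3388, 2362 and 3094 against 4528, 4545 and 4622 (0.65 ± 0.19). Both were also without overlap. The others, beside Stat3, were Lyrm1, Lmo1, Pdzd11, Glmn, Tysnd1, Tmem109, Rbm38 and Zbtb49, with differences from 0.57 for Rbm38 to 1.48 for the dim Zbtb49.

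The 10 of those lower, beside the deleted pair, were mostly dim. 1810065E05Rik gave 34.1, 83.8 and 62.5 in control and 8.28, 28.7 and 17.7 in knockout, without overlap, and its -1.22 ± 0.23 was nearly equal on the 3 dates, at -1.15, -1.21 and -1.30 (unadjusted p = 3.12e-04 in limma, adjusted p = 1.0). Ifnlr1, a chain of the interferon lambda receptor, gave 65.2, 129 and 111 against 21.6, 72.8 and 41.6 (-1.03 ± 0.21), with overlap. It was the 1 further gene to pass when limma's array weights were used, at an adjusted p of 0.0496. The others were Fut4-ps1, T2, Ing4, 4933427D06Rik, Sim1, Slc26a11, Sirpb1a and Zbtb16, of which Zbtb16 is the 1 above the threshold on all 6 arrays. Their differences ran from -1.53 for T2 to -0.87 for Sim1.

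Detection itself differed between the genotypes for few genes. Of the 11815 genes tested, 21 had a signal above the threshold on all 3 control and on 0 knockout arrays, and 1 had the reverse. Over all probe sets with 1 gene symbol the share above the threshold was 52.0%, 53.7% and 55.8% in control on the 3 dates. In knockout it was 50.8%, 59.0% and 49.9%. The filter used the same threshold, so 3 high control arrays alone could bring a gene into the test. Among the 21 were Stat5b, the growth factor gene Pdgfa and Mecom, a regulator of blood stem cells, at 78.0, 86.5 and 80.6 in control and 52.3, 45.6 and 33.7 in knockout (-0.75 ± 0.47). The 1 was Errfi1, a feedback inhibitor of the EGF receptor, at 56.4, 49.6 and 68.2 against 82.5, 80.0 and 92.7 (0.47 ± 0.49). Apart from Stat5b, the control signals of the 21 ran from 71.1 to 259 and their knockout signals from 6.21 to 70.2, around a threshold of 70.5. On the treated knockout arrays Pdgfa gave 118, 237 and 169, and Mecom 13.7, 32.8 and 5.87. Pdgfa, Mecom and Errfi1 were named after their values were seen.

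With treatment, 13 of the same 11815 genes passed (0.11%), all lower in knockout, and 1149 had an unadjusted p under 0.05. The 2 treated arrays of date 2 bear different number tags in their titles, of a meaning no label gives, so their pairing is less certain than that of the untreated ones. Stat5a and Stat5b were among the 13, at -3.70 ± 0.39 and -4.35 ± 0.47. The others give the same genes 2 readings. Cish differed by -2.57 ± 0.26 with treatment (adjusted p = 0.0122 in limma) and by -0.05 ± 0.26 without. Hbegf, an EGF receptor ligand, differed by -2.79 ± 0.36 and -0.01 ± 0.36, the fatty acid elongase Elovl7 by -1.87 ± 0.24 and -0.14 ± 0.24, the heparan sulfate enzyme Hs3st3b1 by -3.37 ± 0.41 and -0.36 ± 0.41, and the short-chain fatty acid receptor Ffar2 by -2.19 ± 0.33 and -0.27 ± 0.33. S1pr3, Pkib, Muc13, E330020D12Rik and Dcaf1 differed by -0.19 to 0.25 without treatment. 1810065E05Rik differed by -1.56 ± 0.23 with and -1.22 ± 0.23 without treatment. These genes were named for their treated values. The difference between the 2 contrasts, tested in the same fit, passed for 0 genes, with 291 at an unadjusted p under 0.05, and for Cish it was 2.53 ± 0.36 (adjusted p = 0.484), so neither Cish nor another gene is shown to differ between the genotypes by another amount with treatment than without it.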

How the data were processed

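The authors deposited 1 linear intensity per probe set for 45101 probe sets on each array, computed by MAS5 (per the submitters' processing notes). The deposited intensity values have a mean near 500.00 on each array after trimming 2% at either end. Other settings are not given in the sources used here, and all 12 columns of the table were mapped. The platform annotation gave the names, and the 34945 probe sets with 1 gene symbol were used. Of these, 21363 had 3 or more arrays of the 12 with an intensity over 70.5 (the median of every value in the table) and were tested. For each gene the set with the highest mean log2 value stood for it, which gave 11815 genes. Sets marked as able to cross-hybridize were used only where a gene had no other set left.

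Values were log2(intensity + 13), where 13 is the 20th percentile of all values, so differences of dim genes are understated. limma 3.58.1 in R 4.3.3 fitted 4 groups with the array date as a block, with 6 residual and 3.96 prior degrees of freedom. It gave moderated p-values, adjusted by Benjamini-Hochberg over all genes. In this layout the untreated difference is the mean of the 3 within-date differences, and the treated arrays add only to the spread. The date in the title pairs arrays. Across genes, deviations from the group means correlated at 0.461 to 0.734 between untreated arrays of the same date. Precision is limited by the number of arrays, which have no count depth. The fit was tested on simulated data.

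The members and gene lists were chosen with earlier results of these data known. Genes were named as the deleted pair, the 12 of either direction with the smallest p and the same sign on every date, all STAT, JAK and STAT5 target genes, the 10 tested neighbours on either side of the locus, and, per list, the member with the largest difference at an unadjusted p under 0.05 and up to 4 detected members. Other genes were named after their values were seen. Alternatives changed the block, the arrays, weights, normalization, added constant, filter and probe set rule. Figures were drawn with matplotlib 3.10.9.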

Additional observations from a re-analysis of the deposited data

How the results depend on the processing

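In all 23 alternatives run for the untreated comparison, the count of genes higher in knockout that passed was 0, and Stat5a and Stat5b kept their direction, with log2 differences of -4.31 to -2.31 and -4.98 to -2.92. The count of genes past the test was 2 in the planned fit. It was 1 without the replicate block on array date, with Stat5b at an adjusted p of 0.238. It was 0 with only the 6 untreated arrays (adjusted p of 0.669 and 0.707), 0 with a constant of 1 in place of 13 (0.0812 and 0.752), and 1 with the mean of a gene's probe sets (Stat5a at 0.895). The fit of only the 6 untreated arrays has fewer samples, and the cause of the other changes in the count was not tested. It was 3 with array weights, adding Ifnlr1, and 2 with quantile normalization, a constant of 50, no filter, a filter on the untreated arrays, every probe set on its own, and without date 2. Without 1 array at a time it was 0 to 2. The genes at an unadjusted p under 0.05 numbered 62 without the block, 568 without date 2 and 815 with array weights, beside 262 in the planned fit. Of 190 named genes 85 kept their sign in each alternative that tested them, and the filter on the untreated arrays tested 177 of the 190. Signal over background limits the dim genes, whose intervals are wider.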
